A study of Homo sapiens with 10 samples.

Results

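The genes that encode amino acid transporters were followed across all 10 RNA-seq libraries of a knockdown study in H1 cells, a widely used human embryonic stem cell line. The rule takes genes by name and uses no measured value: it takes every gene whose symbol belongs to the SLC1A, SLC3A, SLC6A, SLC7A, SLC36A, SLC38A or SLC43A families. That gave 36 of the 13808 genes in the table, all protein-coding. They comprised 9 genes named SLC7A, 8 SLC38A, 6 SLC1A, 6 SLC6A, 3 SLC43A, 2 SLC3A and 2 SLC36A. In GENCODE release 29, 60 protein-coding genes match the same rule, and the rest of these were not analysed here. One match is not a transporter: SLC7A6OS is the neighbour of SLC7A6 on the opposite strand, and it was kept because the rule takes it, which leaves 35 transporter genes. The rule goes by name, so what each member carries was not checked. The SLC6 family, for one, also carries solutes other than amino acids, such as taurine and creatine.

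Per the labels, wild-type H1 cells received virus with a short hairpin RNA (shRNA) against SMARCA4, MAFK, E2F6 or KDM1A and were selected with puromycin. SMARCA4 is a chromatin remodeller, MAFK a small MAF transcription factor, E2F6 a repressive E2F factor and KDM1A a histone demethylase. The controls, shLUC, received an shRNA against luciferase, went through the same virus and selection, and were also wild type. Each of the 5 groups had 2 libraries, described as biological duplicates, and the labels do not say how many hairpins were used per target. The replicate libraries are not tied to separate cultures in more detail, so p-values measure the spread between these libraries.

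Amino acid carriers set how much of each amino acid a cell can take up or release. SLC3A2 and SLC3A1 are heavy chains that bring light chains of the SLC7 family to the cell surface. The pair of SLC3A2 with SLC7A5 (LAT1) exchanges large neutral amino acids such as leucine, and the pair with SLC7A11 (xCT) imports cystine in exchange for glutamate. SLC1A5 (ASCT2) and the SLC38 carriers bring in glutamine and other small neutral amino acids, and SLC7A1, SLC7A2 and SLC7A3 carry arginine and lysine. Several of these genes are known targets of ATF4, the transcription factor that cells use when amino acids run short.

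Values are normalized tag counts, whole numbers that the authors had already scaled, so that every library held nearly the same total (22836548 to 22855295) and the same median of 594. Read depth is therefore unknown. Replicates differed with an SD of 0.264 to 0.335 (log2 scale, all rows) in 4 groups and of 0.53 under shKDM1A. Relative to shLUC, SMARCA4 stood at 12.7% in its knockdown, KDM1A at 42.1%, E2F6 at 61.3% and MAFK at 59.6%, and of these 4 differences that of SMARCA4 passed limma's adjusted threshold over all rows (p 8.55e-05, the others 0.132, 0.774 and 0.572). MAFK held 82 and 216 in shMAFK replicates 1 and 2 against 212 and 288 in shLUC, so replicate 2, labelled as a MAFK knockdown, lay within the control range of its target. All 13 pluripotency markers on a fixed list were in the table, and their summed level was 147249 to 176591 in 9 libraries and 273441 in shKDM1A replicate 1.

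Control cells expressed the 36 genes over a wide range. To compare genes with each other, values were divided by the length of all annotated exons. On this scale SLC1A5 was highest, with 2025 and 2336 normalized tag counts per kilobase in shLUC replicates 1 and 2. Next by mean level per kilobase came SLC7A3 (1170 and 1380), SLC7A5 (788 and 1568), SLC38A2 (1022 and 1092) and SLC3A2 (838 and 1087). The control pair of SLC7A5 spanned the values of the other 3, so its place in this order lay within the spread of the pair, and SLC38A2 and SLC3A2 overlapped each other. Both values of SLC7A3 were above both of SLC38A2 and of SLC3A2. The lowest levels were those of SLC1A2 (2.63 and 3.24 per kilobase) and SLC1A4 (6.92 and 13.5). By mean level per kilobase the 4 highest were thus the arginine and lysine carrier SLC7A3, the leucine carrier SLC7A5 and the glutamine carriers SLC1A5 and SLC38A2. This order depends on the division by length. Before it, the shLUC mean of SLC7A3 was 2888, below the 4983 of SLC3A2. Whether the values scale with exon length was not tested.

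**Figure D1:**
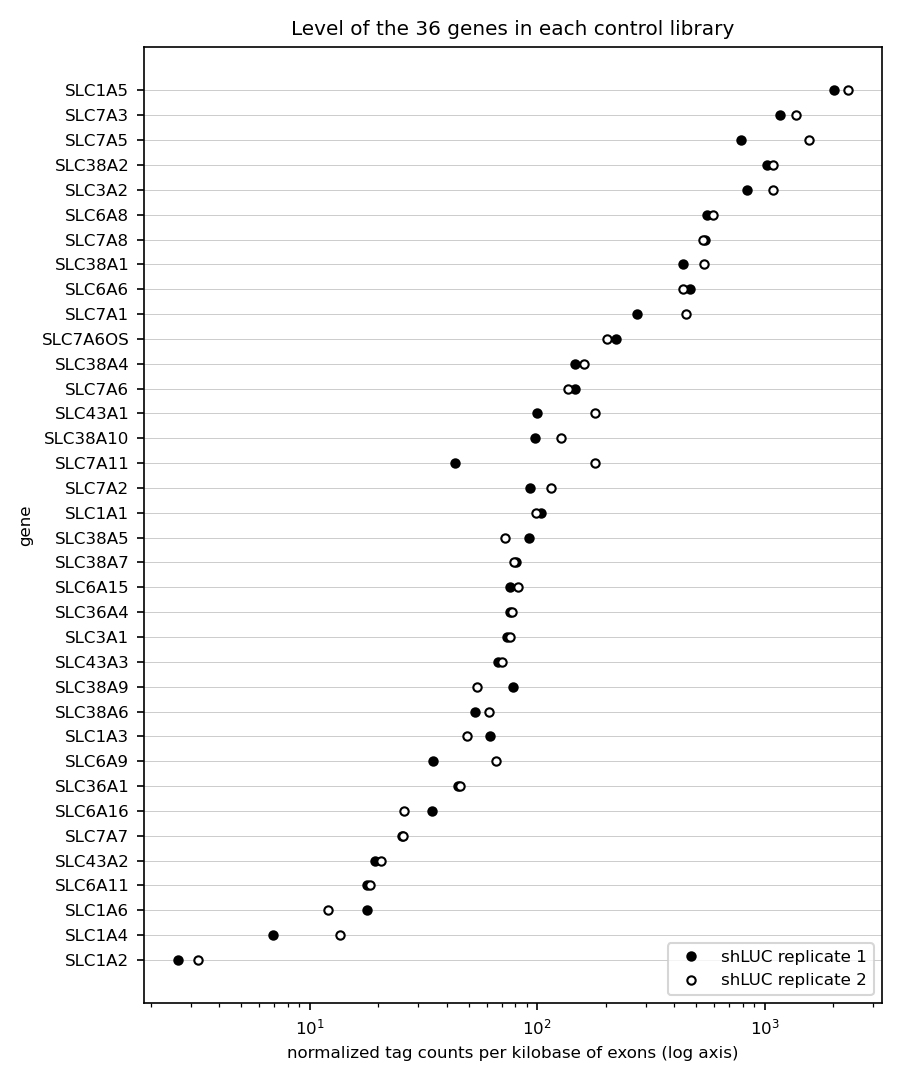
Normalized tag counts per kilobase of exons (x axis, log scale) for the 36 genes (y axis) in each shLUC library, replicate 1 filled and replicate 2 open. SLC1A5 lies highest, at 2025 and 2336, and on this log axis the points of SLC7A11 lie farthest apart, at 43.3 and 179.

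The 2 control libraries differed in part of this set. SLC7A11 held 418 in shLUC replicate 1 and 1728 in replicate 2, a difference of 2.04 on the log2 scale. It was the only member at least 2-fold apart, where 1.01% of all rows were so. SLC7A5 came next, with 3738 and 7440 (0.99 on the log2 scale), followed by SLC1A4 with 48 and 94 (0.96), SLC6A9 with 180 and 340 (0.91) and SLC43A1 with 354 and 632 (0.83). Over the 36 genes 25 were higher in replicate 2, as were 6989 of all 14785 rows. The median difference was 0.08 on the log2 scale for the 36 genes and -0.01 for all rows. Each control library is therefore given apart wherever a result depends on it.

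Promoter sequence was examined for letters that match sites of MAF, E2F and ATF4 factors, because MAFK and E2F6 were among the targets and because several members are known ATF4 targets. RefSeq windows of 300 bases (250 before and 50 after the start, GRCh38.p14) were found for 28 of the 36 genes, 50 windows in all. The composite site of C/EBP and ATF factors (CARE), searched as TGATGCAA, was in windows of 3 members, SLC1A3, SLC1A4 and SLC1A5, that is in 3 of 50 windows (6%) against 0.866% of all 35116 windows. The core of the antioxidant response element (ARE), TGACNNNGC, was in windows of 7 members, 14% of windows against 13.35% of all. An E2F site, TTCCCGC, was in windows of 5 members, 10% against 6.55%. The full MAF recognition element (MARE) was in 0 of the 35116 windows. Both strands were searched, windows of 1 gene can overlap, and a MARE with C or G at its open middle base also holds an ARE core. No window was matched for SLC1A2, SLC3A1, SLC43A3, SLC6A15, SLC6A6, SLC7A11, SLC7A2 and SLC7A3. Some RefSeq starts lie inside the GENCODE gene, as for the SLC38A4 stretch and the SLC1A4, SLC1A5 and SLC3A2 matches given here. SLC3A2 begins at 62856102 in GENCODE, and the run of bases given below with its ARE core match begins at 62881652. The run with the SLC1A3 CARE match, 36596357 to 36596386, lies before the GENCODE start at 36606355. A match describes letters only, and no binding was measured here.

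The CARE matches are shown because this site is a known binding sequence of ATF4. Each run has 30 bases, 5′ to 3′ on the strand of the gene, with the match in capitals (in SLC1A4 the match is on the opposite strand).
SLC1A4, chr2:64989381-64989410, plus strand: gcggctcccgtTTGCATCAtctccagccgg
SLC1A5, chr19:46784893-46784922, minus strand: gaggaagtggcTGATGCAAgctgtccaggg
SLC1A3, chr5:36596357-36596386, plus strand: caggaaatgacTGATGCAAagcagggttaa

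ARE core matches in the exchanger genes SLC3A2 and SLC7A5 and in SLC1A5 are shown next, because MAFK can bind such sites as a partner of other factors. They are a part of the 7 members with a match. Under shMAFK the log2 changes of those shown were 0.57, 1.27 and 0.64. For the others, SLC1A3, SLC7A1, SLC7A6 and SLC7A7, they were -0.36, 0.56, 0.06 and 0.02. Whether these sites have a part in the changes was not tested. The match is in capitals, and in SLC1A5 it is on the opposite strand.
SLC3A2, chr11:62881652-62881681, plus strand: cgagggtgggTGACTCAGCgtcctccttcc
SLC7A5, chr16:87869490-87869519, minus strand: gcggggttccTGACGCAGCtgcgggcggcg
SLC1A5, chr19:46787385-46787414, minus strand: cctggatcttGCGAGGTCAgctcccgctcc

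For SLC38A4 and SLC43A1, which fell under shSMARCA4, and for the exchanger pair SLC3A2 and SLC7A5, the nearest 120 bases before the RefSeq start farthest upstream that hold no annotated exon are given. None of these stretches holds a match to the 4 motifs, so no letters are in capitals. The stretches end 0 bases before the start for SLC38A4 and SLC7A5, 84 for SLC43A1 and 7 for SLC3A2.
SLC38A4, chr12:46825998-46826117, minus strand: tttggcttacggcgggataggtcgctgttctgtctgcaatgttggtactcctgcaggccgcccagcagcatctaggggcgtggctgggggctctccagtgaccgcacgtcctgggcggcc
SLC43A1, chr11:57515787-57515906, minus strand: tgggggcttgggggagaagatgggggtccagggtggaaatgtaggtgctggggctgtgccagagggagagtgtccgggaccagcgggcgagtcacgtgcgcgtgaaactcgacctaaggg
SLC3A2, chr11:62855982-62856101, plus strand: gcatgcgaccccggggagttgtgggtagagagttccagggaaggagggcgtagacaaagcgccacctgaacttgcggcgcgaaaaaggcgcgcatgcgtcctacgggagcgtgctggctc
SLC7A5, chr16:87869508-87869627, minus strand: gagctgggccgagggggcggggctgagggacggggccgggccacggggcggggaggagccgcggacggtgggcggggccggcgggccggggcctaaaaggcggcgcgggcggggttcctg

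Knockdown of SMARCA4 lowered 3 amino acid transporter genes: SLC38A4, SLC43A1 and SLC1A5. On the log2(value + 1) scale SLC38A4 fell to 0.399 of the control level, SLC43A1 to 0.292 and SLC1A5 to 0.66, and 0 members rose. A fall past limma's adjusted threshold of 0.05 was seen in 371 of 14785 rows (2.51%) and a rise in 247 (1.67%). The median log2 change was -0.15 over the 36 genes and 0.01 over all rows. Below 0 lay 24 of the 36 genes and 7251 of the 14785 rows.

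SLC38A4 (ENSG00000139209, chromosome 12, 46764761 to 46832408, GRCh38, minus strand) encodes a carrier of small neutral amino acids. It held 246 and 262 under shSMARCA4 against 608 and 668 in shLUC. The other libraries held 662 and 664 under shMAFK, 767 and 741 under shE2F6, and 482 and 648 under shKDM1A, so both shSMARCA4 libraries lay below all 8 others. The means were 254 ± 11.3 and 638 ± 42.4 (SD, n = 2), a limma log2 difference of -1.32 (SE 0.17, adjusted p 0.00408). Of the 20 alternative fits SLC38A4 stayed past the threshold in 19. It did not without shLUC replicate 2, where its log2 difference was -1.26. Of the 19, the fits without the filter and with median centring could not differ from the main fit.

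SLC43A1 (ENSG00000149150, chromosome 11, 57484534 to 57515786, minus strand) encodes LAT3, which carries leucine and other large neutral amino acids without a heavy chain. Its values were 124 and 152 under shSMARCA4 and 354 and 632 in shLUC. In the other groups it held 1136 and 843 (shMAFK), 423 and 434 (shE2F6), and 702 and 998 (shKDM1A). The shSMARCA4 pair was again below all other libraries, and the shMAFK and shKDM1A libraries were the 4 highest. The means of 138 ± 19.8 and 493 ± 197 gave a limma log2 difference of -1.78 (SE 0.29, adjusted p 0.012), which was -1.36 against shLUC replicate 1 alone and -2.19 against replicate 2 alone. With 1 library of either group left out, the call was lost in 3 of the 4 cases, that is without shLUC replicate 2 or without either shSMARCA4 library.

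SLC1A5 (ENSG00000105281, chromosome 19, 46774883 to 46788594, minus strand) encodes the glutamine exchanger ASCT2. It held 4612 and 4958 under shSMARCA4, 6746 and 7784 in shLUC, 11635 and 10950 under shMAFK, 6077 and 6143 under shE2F6, and 12340 and 11277 under shKDM1A. No group overlapped with shSMARCA4. The means were 4785 ± 245 and 7265 ± 734 (SD, n = 2), with a limma log2 difference of -0.60 (SE 0.14, adjusted p 0.044). This call was close to the threshold, and it held in 9 of 20 alternative fits, with limma adjusted p from 0.0124 to 0.359. Of the 9, the fits without the filter and with median centring could not differ from the main fit. The exons of SLC1A5 share 780 bases with an annotated transcript on the opposite strand. Whether counting used strand is not given in the sources used here.

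More members separated from the controls without passing over all rows. Values of shSMARCA4 and shLUC did not overlap for 21 members, 7 higher (25.6% of all rows) and 14 lower (25.4% of all rows). At an unadjusted p under 0.05 there were 4 higher (7.78% of all rows) and 6 lower (8.53%). SLC3A2, the heavy chain, held 2794 and 3007 under shSMARCA4 against 4340 and 5626 in shLUC (limma log2 difference -0.77 with SE 0.26, adjusted p 0.171). SLC7A8 (LAT2), another light chain, held 2030 and 2162 against 3262 and 3226 (limma adjusted p 0.188). Toward higher values lay SLC36A1, a proton-coupled carrier found on lysosomes, with 528 and 632 under shSMARCA4, 314 and 321 in shLUC, 276 and 322 under shMAFK, 348 and 430 under shE2F6, and 162 and 300 under shKDM1A (limma log2 difference 0.86 with SE 0.27, adjusted p 0.131). SLC38A7, a lysosomal glutamine and asparagine carrier, held 771 and 1038 against 566 and 551 (limma adjusted p 0.20). When each group had its own weight, these 4 genes and SLC38A2 passed too, which made 8 calls in place of 3, and so they did in each fit that left out either or both of the shKDM1A libraries. SLC7A11 passed only in the fit without shLUC replicate 1 (limma adjusted p 0.0454).

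Markers of endoderm, mesoderm, trophoblast and fibroblasts lay outside the range of the other libraries under shSMARCA4, and those of ectoderm did not in replicate 1. FOXA2, the 1 of 6 endoderm markers in the table, held 792 and 170 under shSMARCA4 and 0 to 4 elsewhere. The 3 of 6 mesoderm markers in the table summed to 10985 and 7503, against 2527 to 7464 elsewhere. KRT7, the 1 of 6 trophoblast markers in the table, held 30 and 44 against 125 to 360. The 4 of 6 fibroblast markers in the table (COL1A1, COL1A2, THY1 and VIM) summed to 6634 and 7613 against 16165 to 31004, and the 3 ectoderm markers to 6865 and 4157 against 4418 to 11136. SOX17, GATA6, TBXT and other markers on these lists were not analysed here. A summed level can be carried by the highest gene of its list. Whether these markers came from such cells or from the H1 cells themselves was not tested. The part of such cells in the transporter values was not tested either. In bulk RNA, fewer cells of a type and less RNA per cell cannot be told apart.

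**Figure D2:**
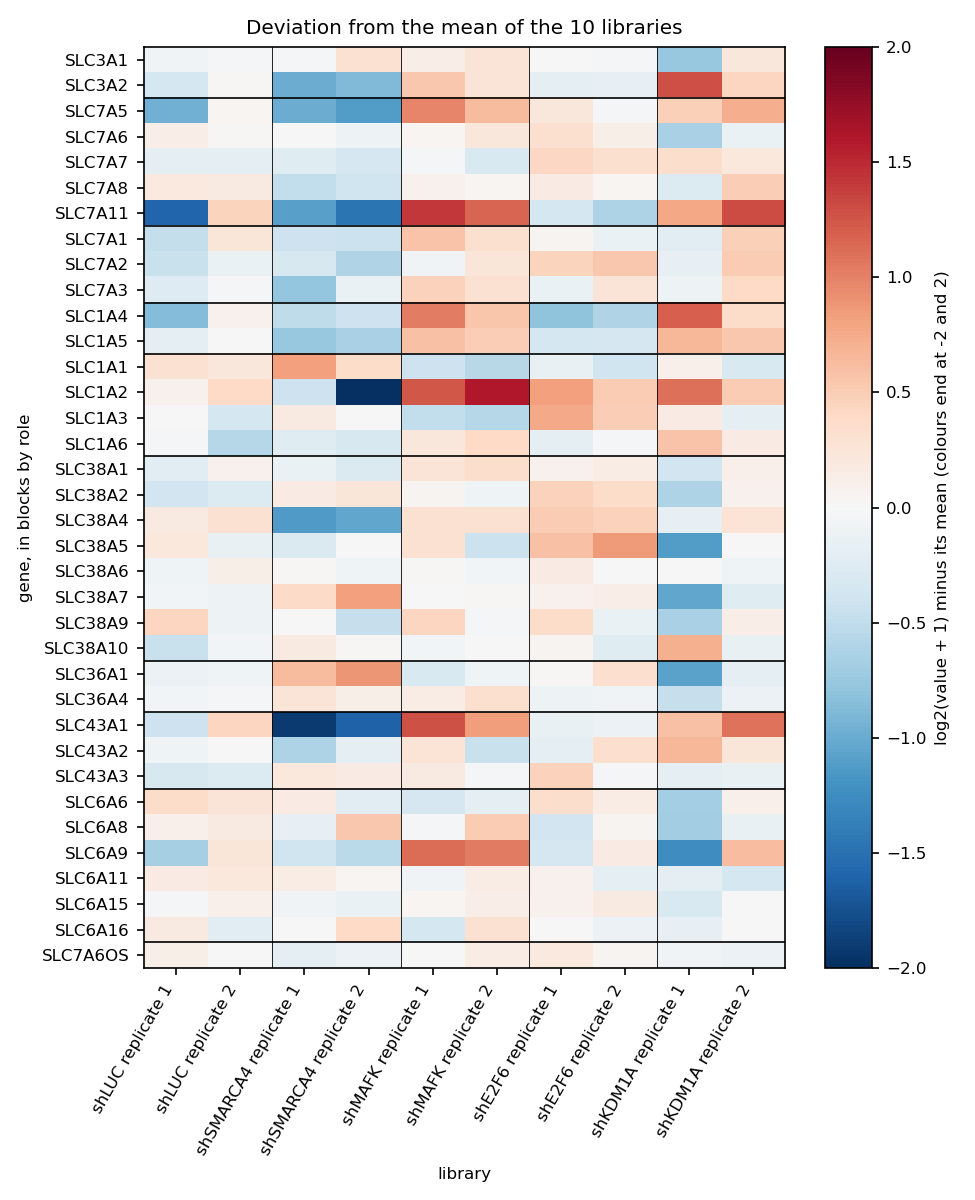
Log2(value + 1) of each gene minus its mean over the 10 libraries (colour, ending at -2 and 2) for the 36 genes (rows, in blocks by role) and 10 libraries (columns). SLC7A5, SLC7A11, SLC43A1 and SLC1A5 are above their means in the shMAFK and shKDM1A libraries and below them in the shSMARCA4 libraries.

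Knockdown of MAFK gave no member past the threshold over all rows, where 2 of 14785 rows passed (0.0135%). The smallest limma adjusted p among the members was 0.158, and by unadjusted p under 0.05 there were 7 higher (4.27% of all rows) and 2 lower (4.49%). Group means were at least 2-fold higher on the log2 scale for 6 members (1.21% of all rows) and at least 2-fold lower for 0 (1.07%). The 6 were SLC7A11, SLC6A9, SLC1A2, SLC1A4, SLC7A5 and SLC43A1. Values did not overlap with the controls for 19 members on the higher side (23.8% of all rows) and 5 on the lower (25.3%), and the median log2 change was 0.16 over the members and 0.00 over all rows.

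SLC7A11 (ENSG00000151012, chromosome 4, 138164097 to 138242349, minus strand), the cystine importer, held 3367 and 2832 under shMAFK and 418 and 1728 in shLUC. Its values elsewhere were 592 and 459 under shSMARCA4, 989 and 820 under shE2F6, and 2156 and 3128 under shKDM1A. Thus the shMAFK and shKDM1A libraries were the 4 highest, and shLUC replicate 2 came next. The log2 change under shMAFK was 1.86 (SE 0.53, limma adjusted p 0.297), made up of 2.88 against shLUC replicate 1 and 0.84 against replicate 2. In the fit without shLUC replicate 2 it passed (limma adjusted p 0.0262), and it did not in the other 19 alternatives. So 1 control library decided the size and the call of SLC7A11. An annotated antisense transcript shares 865 exon bases with it.

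SLC7A5 (ENSG00000103257, chromosome 16, 87830023 to 87869488, minus strand), the leucine exchanger, held 14274 and 11277 under shMAFK against 3738 and 7440 in shLUC. The remaining groups held 3651 and 3348 (shSMARCA4), 8496 and 7097 (shE2F6), and 10071 and 11997 (shKDM1A). Its log2 change under shMAFK was 1.27 (SE 0.29, limma adjusted p 0.177), with 1.76 against shLUC replicate 1 and 0.77 against replicate 2. Its partner SLC3A2 (ENSG00000168003, chromosome 11, 62856102 to 62888875, plus strand) held 8086 and 6647 under shMAFK and 4340 and 5626 in shLUC (log2 change 0.57, limma adjusted p 0.598). In shSMARCA4, SLC7A5 lay 0.10 below shLUC replicate 1 and 1.09 below replicate 2 on the log2 scale, with a limma adjusted p of 0.362. With group weights SLC7A5, SLC1A5, SLC43A1 and SLC1A1 passed under shMAFK.

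A pair of further members stood out under shMAFK by their values. SLC6A9 (GLYT1, a glycine carrier) held 622 and 590, above the 180 and 340 of shLUC and above the 120 to 438 of the other libraries (limma adjusted p 0.524). SLC1A1, the neuronal-type glutamate and cysteine carrier EAAC1, held 252 and 228 against 416 and 394 in shLUC (limma log2 difference -0.75 with SE 0.21, adjusted p 0.276). It was also below the shLUC pair under shE2F6 (304 and 256, log2 change -0.54) and shKDM1A (360 and 272, log2 change -0.37). Under shSMARCA4 it held 596 and 436.

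Under shKDM1A 0 members passed over all rows, where 4 of 14785 rows did (0.0271%), and the smallest limma adjusted p of a member was 0.156. An unadjusted p under 0.05 was found for 8 higher (5.85% of all rows) and 2 lower (5.61%). Values did not overlap with the controls for 11 members on the higher side (17.9% of all rows) and 9 on the lower (20.9%). At least 2-fold higher on the log2 scale were 4 members (1.54% of all rows), SLC7A11, SLC1A4, SLC7A5 and SLC3A2, and 0 were at least 2-fold lower (1.72%). The median log2 change was -0.06 over the members and -0.02 over all rows.

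SLC3A2 held 13575 and 7440 under shKDM1A, against 4340 and 5626 in shLUC and 4906 and 4958 under shE2F6. The limma fit gave a log2 difference of 1.02 with SE 0.26 and an adjusted p of 0.265. For SLC1A5 the log2 change was 0.70 (SE 0.14, limma adjusted p 0.156), for SLC7A11 1.61 (SE 0.53, limma adjusted p 0.354) and for SLC7A5 1.06 (SE 0.29, limma adjusted p 0.289). The shKDM1A pair was far apart for many members. Its replicate 1 held the lowest of the 10 values for 13 of the 36 genes, where it did so for 26.8% of all rows. Among these were SLC36A1 (162 in replicate 1 and 300 in replicate 2), SLC38A2 (5706 and 9296) and SLC6A6 (1875 and 3227). A fit without shKDM1A replicate 2 rests on replicate 1 alone. The share of all rows passing in that fit was not taken, so its count of members is not read as a result.

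Knockdown of E2F6 gave 0 members past the threshold, as it gave 0 of all rows (0%), and the smallest limma adjusted p of a member was 0.63. At an unadjusted p under 0.05, limma gave 5 members higher (2.55% of all rows) and 1 lower (2.54%), which was SLC1A1. No member was 2-fold apart on the log2 scale, where 1.09% of all rows were. Values did not overlap with the controls for 10 members on the higher side (20.3% of all rows) and 6 on the lower (20.4%). The members with the smallest p were SLC1A3, SLC38A2 and SLC7A2. SLC1A3 (ENSG00000079215, chromosome 5, 36606355 to 36688334, plus strand), a glutamate and aspartate carrier best known from glia, held 657 and 551 under shE2F6 and 389 and 307 in shLUC. Elsewhere it held 444 and 388 under shSMARCA4, 278 and 262 under shMAFK, and 436 and 346 under shKDM1A, so the shE2F6 pair was above all 8 other libraries. The limma fit gave a log2 difference of 0.80 with SE 0.19 and an adjusted p of 0.63. SLC38A2 (SNAT2), a glutamine and alanine carrier, held 11997 and 11277 under shE2F6, 6746 and 7210 in shLUC, 9772 and 10349 under shSMARCA4, 9056 and 8220 under shMAFK, and 5706 and 9296 under shKDM1A (limma log2 difference 0.74 with SE 0.21, adjusted p 0.797). SLC7A2, an arginine carrier, held 1362 and 1450 under shE2F6, 737 and 909 in shLUC, 802 and 658 under shSMARCA4, 953 and 1184 under shMAFK, and 889 and 1418 under shKDM1A (limma log2 difference 0.78 with SE 0.24, adjusted p 0.884).

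**Figure D3:**
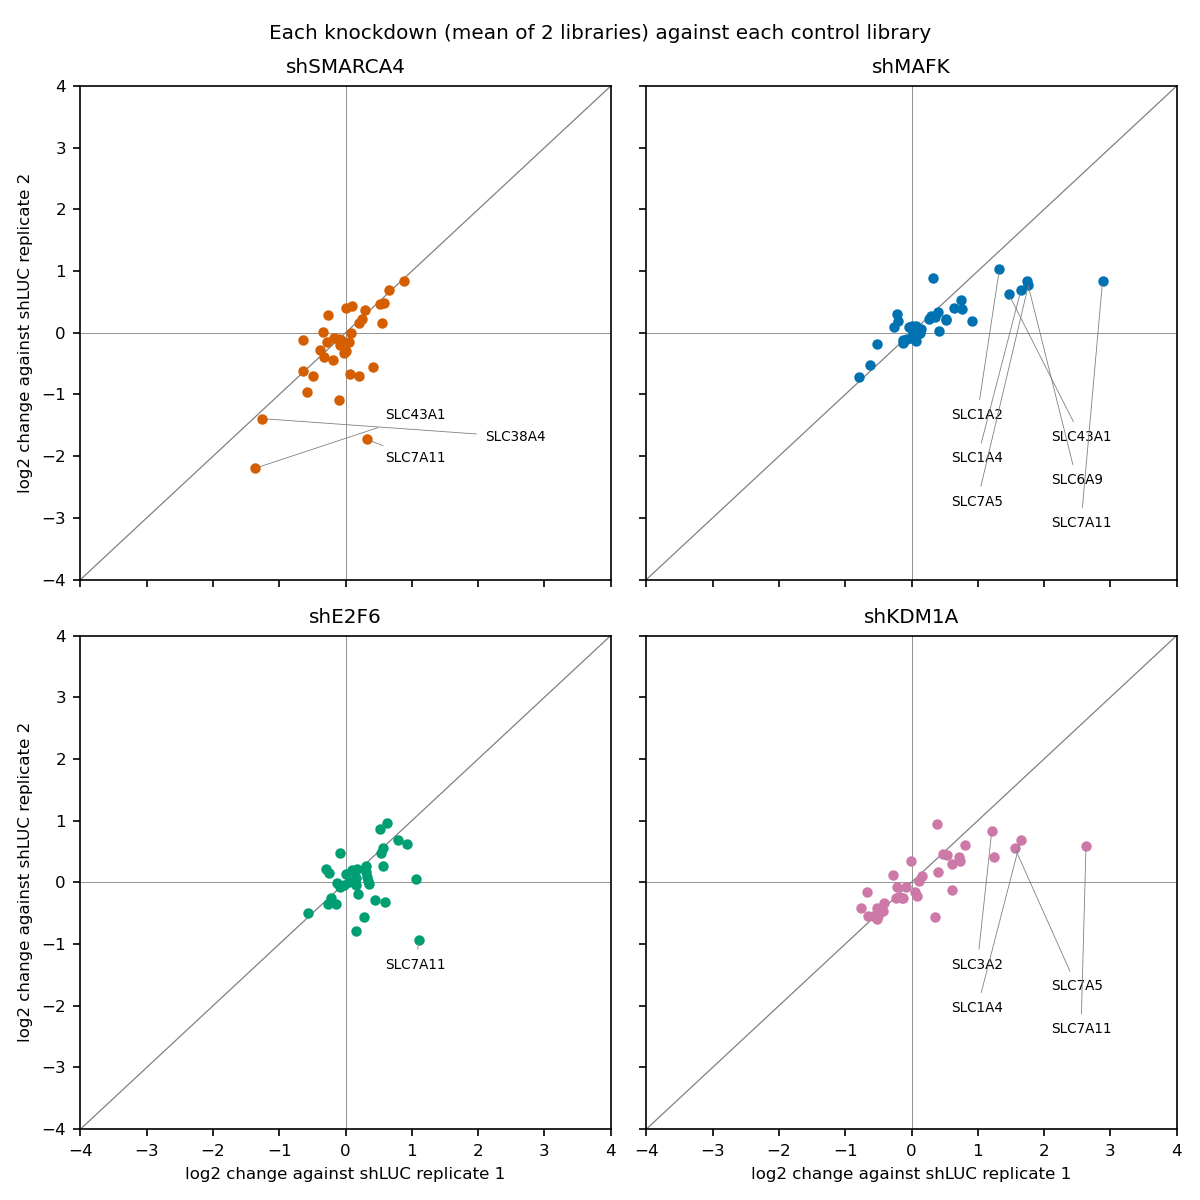
Log2 change of each knockdown (mean of its 2 libraries) against shLUC replicate 1 (x axis) and against shLUC replicate 2 (y axis) for the members (points), in 1 panel per knockdown with the line of equality. SLC1A2 is left out of the shSMARCA4 panel because 1 library lists it at 0. SLC7A11 lies at 2.88 and 0.84 under shMAFK and at 0.32 and -1.73 under shSMARCA4.

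The shared control pair does not enter the means compared among the 4 knockdowns. limma's moderated F-test over those 4 groups found 8 of the 36 members and 982 of 14785 rows (6.64%). The 8 were SLC1A5 (limma adjusted F-test p 0.00225), SLC43A1 (0.00285), SLC38A4 (0.00358), SLC3A2 (0.0164), SLC7A5 (0.0173), SLC1A3 (0.0319), SLC7A11 (0.0409) and SLC1A1 (0.0447). At an unadjusted p under 0.05 there were 18 members (23.6% of all rows). For SLC1A5, SLC43A1, SLC3A2, SLC7A5 and SLC7A11 the shSMARCA4 mean was the lowest of the 4 knockdowns and the shMAFK and shKDM1A means the highest. SLC1A1 had another order: it held 596 and 436 under shSMARCA4, 252 and 228 under shMAFK, 304 and 256 under shE2F6, and 360 and 272 under shKDM1A. The count of 8 fell when any library of shLUC, shSMARCA4, shMAFK or shE2F6 was left out and rose without either shKDM1A library. The shLUC libraries enter this test through the shared estimate of the spread. The share of all rows passing in those fits was not taken.

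**Figure D4:**
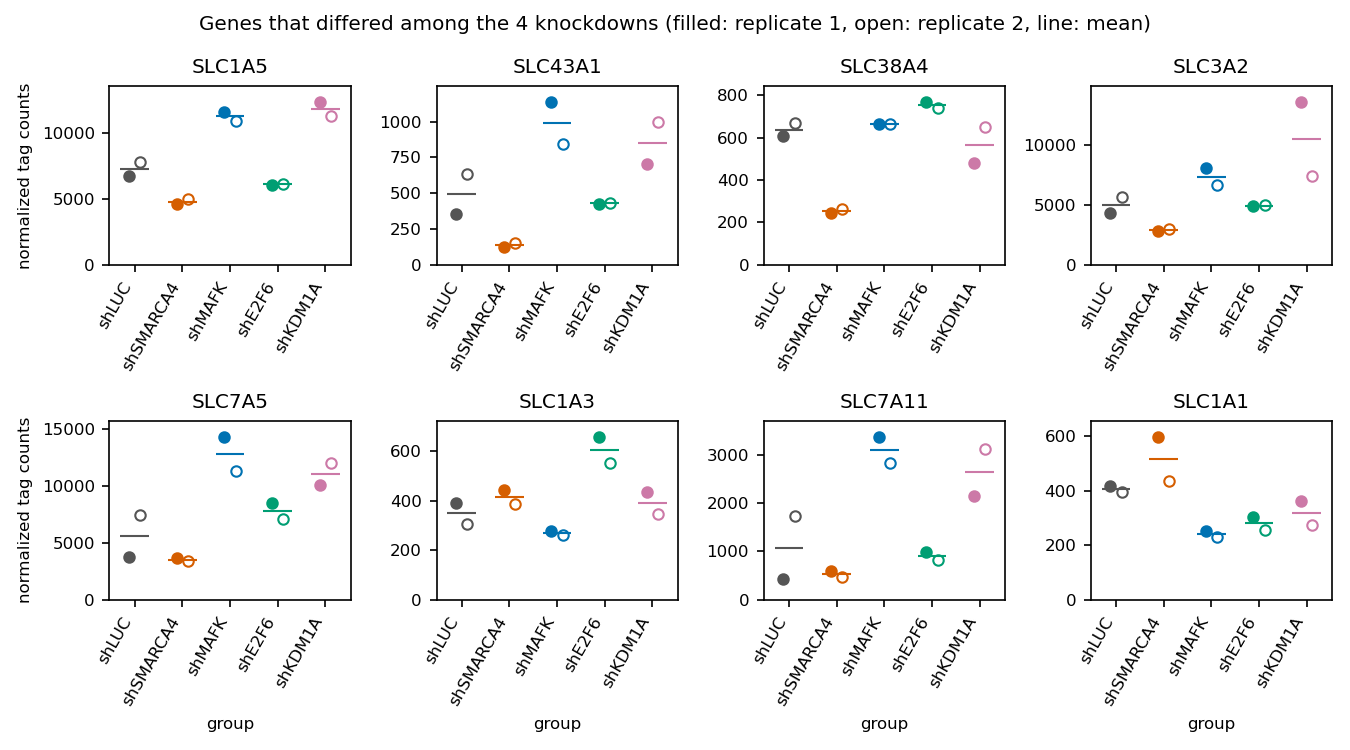
Normalized tag counts (y axis, from 0) by group (x axis) for the 8 genes past the F-test among the 4 knockdowns, with replicate 1 filled, replicate 2 open and a line at the mean. SLC38A4 is at 246 and 262 under shSMARCA4 and at 482 or above elsewhere, and SLC1A5 is at 10950 or above under shMAFK and shKDM1A and at 7784 or below elsewhere.

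Across libraries, 7 members had their 4 highest values in exactly the shMAFK and shKDM1A libraries: SLC1A4, SLC1A5, SLC1A6, SLC3A2, SLC43A1, SLC7A5 and SLC7A11. Among all rows 2.16% did. This pattern was picked after the values were seen, so it is a description with no test. SLC1A4 (ASCT1, a carrier of alanine, serine and cysteine) held 180 and 130 under shMAFK, 204 and 114 under shKDM1A and 48 to 94 in the other 6 libraries. SLC1A6, a glutamate carrier best known from the cerebellum, held 162 and 181, 206 and 155, and 92 to 136 in the same order. Both shSMARCA4 libraries lay below the 8 others for 8 members (8.41% of all rows) and above them for 3 (8.62% of all rows).

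The remaining carriers showed no test past the threshold over all rows. Of the cationic carriers, SLC7A1 held 2104 and 3474 in shLUC, 2208 and 2185 under shSMARCA4, 4340 and 3651 under shMAFK, 3060 and 2677 under shE2F6, and 2505 and 4092 under shKDM1A. SLC7A3 held 2650 and 3126, 1847 and 2891, 4340 and 3928, 2891 and 3780, and 2952 and 4165 in the same order of groups. Both had shMAFK values above the shLUC pair and values in the other knockdowns that overlapped with it.

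SLC38A1 (SNAT1), another glutamine carrier, was among the steadier genes, with 4392 and 5421 in shLUC, 4646 and 4166 under shSMARCA4, 6078 and 6492 under shMAFK, 5421 and 5628 under shE2F6, and 3902 and 5500 under shKDM1A. SLC38A9, the lysosomal arginine sensor upstream of mTORC1, held 689 and 478 in shLUC, 516 and 373 under shSMARCA4, 694 and 502 under shMAFK, 666 and 468 under shE2F6, and 329 and 564 under shKDM1A. In 4 of the 5 groups its replicate 1 was the higher library. SLC38A6 spanned only 272 to 324 over all 10 libraries, and SLC38A5, a glutamine and asparagine carrier, spanned 147 to 580.

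The heavy chain SLC3A1, known from the kidney, held 482 and 497 in shLUC, 495 and 624 under shSMARCA4, 553 and 605 under shMAFK, 501 and 496 under shE2F6, and 300 and 592 under shKDM1A. Its exons share 1923 bases with PREPL on the opposite strand, so its values may hold reads of that gene. SLC7A6, a light chain of the exchanger for cationic and neutral amino acids, held 1115 and 1038 in shLUC, 1020 and 948 under shSMARCA4, 1050 and 1197 under shMAFK, 1272 and 1108 under shE2F6, and 652 and 930 under shKDM1A. SLC7A6 shares 3371 exon bases with SLC7A6OS, which spanned 933 to 1222, and reads of the pair cannot be told apart without strand. SLC7A7, a further light chain, spanned 119 to 200.

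Of the SLC6 family, the taurine carrier SLC6A6 held 3874 and 3604 in shLUC, 3366 and 2594 under shSMARCA4, 2381 and 2650 under shMAFK, 3820 and 3314 under shE2F6, and 1875 and 3227 under shKDM1A. The creatine carrier SLC6A8 held 3074 and 3246, 2544 and 4165, 2818 and 4065, 2200 and 2967, and 1770 and 2586 in the same order. For SLC6A8 the shE2F6 and shKDM1A libraries lay below the shLUC pair, with limma adjusted p of 1 and 0.474. SLC6A11 spanned 83 to 123, SLC6A15 544 to 766 and SLC6A16 85 to 144. SLC36A4 spanned 557 to 963, SLC38A10 755 to 1690, SLC43A2 141 to 345 and SLC43A3 304 to 525. SLC1A2, a glutamate carrier, had 60 and 74 in shLUC and 134 and 172 under shMAFK, and shSMARCA4 replicate 1 held 42 while replicate 2 is listed at 0. It was the only member listed at 0 in a library.

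Genes that work beside the transporters were read from 5 lists. The list of the amino acid response (GCN2 and ATF4) had 16 genes in the table. Its median log2 change was -0.58 under shSMARCA4, 1.09 under shMAFK, -0.32 under shE2F6 and 1.02 under shKDM1A, where all rows had medians from -0.02 to 0.01. Over all rows 1 of the 16 passed, ATF5 under shMAFK, and by unadjusted p under 0.05 limma gave 11 higher under shMAFK (4.27% of all rows), 11 higher under shKDM1A (5.85%), 8 lower under shSMARCA4 (8.53%) and 1 lower under shE2F6 (2.54%). No gene of this list had such a p in the opposite direction. ATF5, a transcription factor of this response, held 1530 and 1454 under shMAFK, 268 and 501 under shKDM1A and 74 to 164 elsewhere (limma adjusted p 0.00928 under shMAFK). For 10 of the 16 the 4 highest values were those of shMAFK and shKDM1A (62.5%), beside 2.16% of all rows. The list was chosen with earlier results of these data known and the pattern after the values were seen. These shares are therefore a description with no test.

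This list also split the control pair: its median was 1.00 higher on the log2 scale in shLUC replicate 2 than in replicate 1. In replicate 2, 13 of the 16 genes were higher, where 6989 of all 14785 rows were. Its median deviation from the mean of the 10 libraries was -0.76 in shLUC replicate 1, 0.21 in replicate 2, -0.77 and -0.80 under shSMARCA4, -0.43 and -0.67 under shE2F6, 1.05 and 0.60 under shMAFK, and 0.52 and 0.75 under shKDM1A. SLC7A11, SLC7A5 and SLC43A1 were among the 25 of 36 members with shLUC replicate 2 above replicate 1. Of the 7 members with their 4 highest values under shMAFK and shKDM1A, only SLC1A6 went the other way, with 136 in replicate 1 and 92 in replicate 2. What part the state of the control cultures had in the values of these transporters was not tested.

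**Figure D5:**
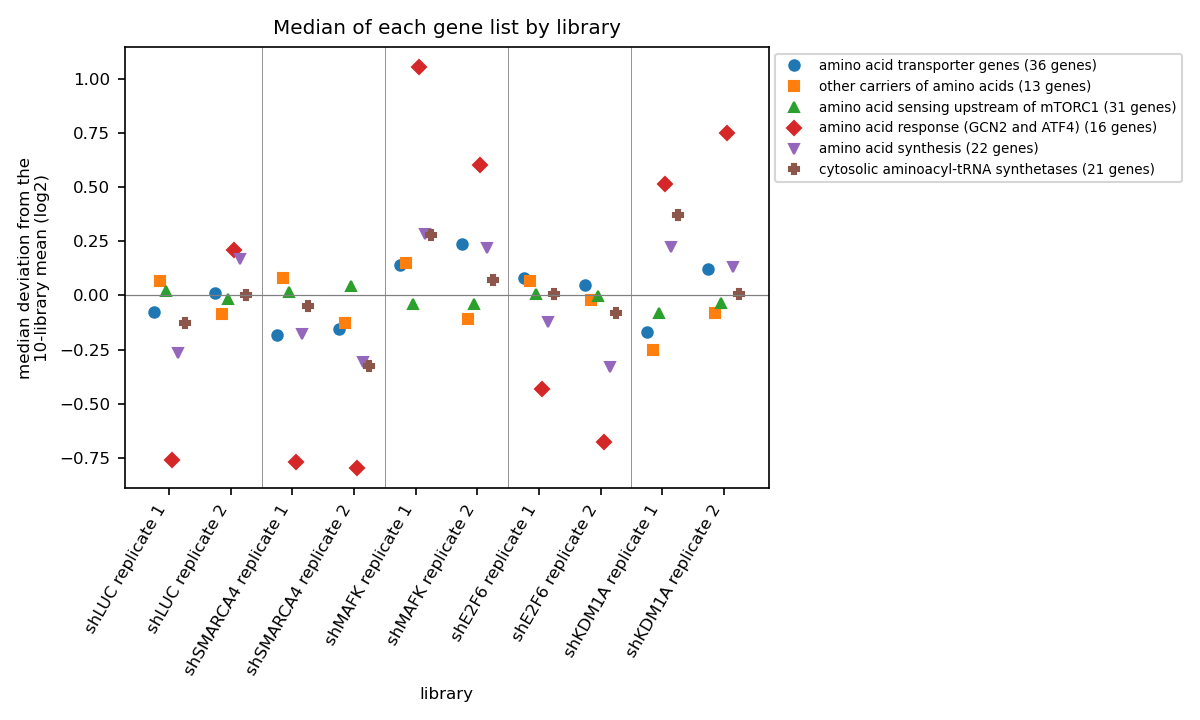
Median over each list of the deviation of log2(value + 1) from its mean over the 10 libraries (y axis), by library (x axis), for the 36 members and the 5 other lists (symbols). The amino acid response list is at -0.76 in shLUC replicate 1 and 0.21 in replicate 2, and it is highest in shMAFK replicate 1, at 1.05.

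Enzymes of amino acid synthesis (22 genes in the table) had median log2 changes of -0.30, 0.31, -0.23 and 0.27 under shSMARCA4, shMAFK, shE2F6 and shKDM1A. SHMT2, the mitochondrial enzyme that splits serine, was the 1 gene past the threshold: it fell from 3564 and 5172 in shLUC to 2022 and 1636 under shSMARCA4 (log2 change -1.24, limma adjusted p 0.0351). It held 9502 and 8628 under shMAFK (limma adjusted p 0.211), 4612 and 3366 under shE2F6, and 4646 and 7097 under shKDM1A. By unadjusted p under 0.05, limma gave 0 higher and 6 lower under shSMARCA4, 7 and 1 under shMAFK, 0 and 0 under shE2F6, and 8 and 2 under shKDM1A.

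Over all rows, the shares higher and lower by that p were 7.78% and 8.53% under shSMARCA4, 4.27% and 4.49% under shMAFK, 2.55% and 2.54% under shE2F6, and 5.85% and 5.61% under shKDM1A. The 21 cytosolic aminoacyl-tRNA synthetases had median log2 changes of -0.17, 0.25, 0.03 and 0.21 in that order of knockdowns, and 0 passed limma's adjusted threshold. Their counts by unadjusted p were 1 higher and 3 lower under shSMARCA4, 6 and 0 under shMAFK, 0 and 1 under shE2F6, and 4 and 2 under shKDM1A. The 13 other carriers of amino acids, mitochondrial and lysosomal ones included, had medians of -0.02, 0.13, 0.07 and -0.13 and 0 calls by limma's adjusted p. By unadjusted p they had 1 higher and 1 lower under shSMARCA4, 2 and 1 under shMAFK, 1 and 0 under shE2F6, and 0 and 1 under shKDM1A.

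Among 31 genes of amino acid sensing upstream of mTORC1, RRAGD was the 1 call past the adjusted threshold. RagD, its product, is a GTPase that recruits mTORC1 to lysosomes. It fell from 704 and 674 in shLUC to 300 and 360 under shSMARCA4 (log2 change -1.07, limma adjusted p 0.00711). Its values were also below the shLUC pair in the other knockdowns: 421 and 414 under shMAFK (log2 change -0.72, limma adjusted p 0.158), 469 and 404 under shKDM1A (log2 change -0.66, limma adjusted p 0.227), and 638 and 645 under shE2F6 (log2 change -0.10, limma adjusted p 1). By unadjusted p the list had 2 higher and 2 lower under shSMARCA4, 1 and 1 under shMAFK, 0 and 0 under shE2F6, and 2 and 3 under shKDM1A. ASNS is on the lists of the response and of synthesis, and SESN2 on those of the response and of sensing.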

How the data were processed

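RNA-seq of 10 H1 libraries in 5 groups of 2 was analysed, and all columns were matched to samples by the sample descriptions (0 columns unmatched). The authors deposited normalized tag counts rounded to whole numbers, treated here as a score and not as counts, because all libraries share 1 median and hold the same value at 80.3% of ranks. STAR and STARsolo and the build hg38 are named in the submitters' processing notes. The counter, annotation and normalization are not given in the sources used here. Depth is unknown, so no interval on counts is given.

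Values were analysed as log2(value + 1), so fold changes understate those of low genes. limma 3.58.1 in R 4.3.3 (mean-variance trend, two-sided) compared each knockdown with shLUC in 1 fit of all 10 libraries. An F-test compared the 4 knockdowns. Benjamini-Hochberg adjustment ran over all 14785 rows with a mean of at least 10 (no row was removed, so all 36 members passed), with a threshold of 0.05. All 36 symbols and positions were found in GENCODE 29 (GRCh38), whose exons gave lengths. The script was tested on simulated data. Given in full were members past a threshold, the 3 of smallest p per knockdown and members of known role. Genes of other lists were given where past the threshold. The rule for the members uses names only, but the choice of these families and of the other lists was made with earlier results of these data known. Alternatives changed the pseudocount, filter, scaling, variance model, libraries and replicate block. Python 3.11.15, pandas 2.3.3 and matplotlib 3.10.9 were used.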

Additional observations from a re-analysis of the deposited data

How the results depend on the processing

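The count of members past the threshold in shSMARCA4 was 3. It was 8 with group weights, 8 without both shKDM1A libraries and 5 with only the groups compared, and 0 to 8 when 1 library was left out (0 without shLUC replicate 2, 8 without either shKDM1A library). In shMAFK it was 0, 4 with group weights and 0 to 1 with 1 library left out. In shKDM1A it was 0, and 0 to 12 with 1 library left out (12 without shKDM1A replicate 2, 1 without shLUC replicate 2). In shE2F6 it was 0 in each alternative run. The F-test count of 8 was 13 without both shKDM1A libraries and 3 to 22 with 1 library left out. The share of all rows passing was taken for the main fit only, so these counts do not set the members apart from other rows. With group weights or without both shKDM1A libraries, the log2 changes in shSMARCA4 stayed the same (SLC1A5 -0.60 in each). What differed was the estimate of the spread, which in the main fit is shared by all groups, shKDM1A included. For other changes not due to the smaller number of libraries, the cause was not tested. The pseudocount, a higher filter (a mean of at least 50) and the missing trend moved no count by over 1.5 times. Dropping the filter and median centring could not move a count, because the filter removed no row and all libraries already shared 1 median. Quantile normalization had little room to act, because most ranked values were already equal across libraries. It moved the F-test count from 8 to 9 and the median log2 change of all rows by at most 0.005.

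The replicate numbers were not taken to pair the libraries: the correlation of replicate deviations ran from -0.05 to 0.34 over 10 pairs of groups, and 2 exceeded 0.1. With the replicate block 2 members passed in shSMARCA4, 0 in the other 3 knockdowns and 8 in the F-test, of which 7 were among the 8 without it.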
